A study of Rattus norvegicus with 8 samples.

Results

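Amino acid transporters of the rat kidney are described here, as 41 genes of the solute carrier families Slc1, Slc3, Slc6, Slc7, Slc36 and Slc38 out of 15037 genes that carried a name on the array. They were chosen by symbol alone, namely all numbered Slc1a, Slc7a, Slc36a and Slc38a genes except Slc38a3, both Slc3 heavy chains, and the Slc6 genes of amino acid transport. Each had 1 probe set. Slc6a20, Slc7a1, Slc38a10 and Slc38a11 were not analysed here. The study asked how phlorizin, a plant glucoside that blocks the sodium-glucose cotransporters SGLT1 and SGLT2, bears on the formation of kidney stones. Male Sprague-Dawley rats, 10 weeks old, were used, and RNA of the renal outer medulla and of the renal cortex was hybridised to Clariom S arrays. The 4 treatments were ethylene glycol with alfacalcidol plus phlorizin (EG with phlorizin), ethylene glycol with alfacalcidol (EG), phlorizin, and control. Ethylene glycol is turned into oxalate by the liver, and alfacalcidol is a vitamin D analogue. Given together, here for 2 weeks, they are a common model of calcium oxalate stones. All rats, controls included, ate pelleted food and drank water at will. The dose and route of phlorizin are not given in the sources used here. With 1 array per zone and treatment, 8 in all, no p-value is given for a pair of single arrays. The labels do not state whether RNA was pooled over rats, and since each kidney was divided, both arrays of a treatment may come from the same rats.

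Amino acids pass the glomerular filter freely and are taken back almost entirely by the proximal tubule. On the luminal side, B0AT1 (Slc6a19) carries neutral amino acids with sodium, and the pair of rBAT (Slc3a1) and its light chain (Slc7a9) carries cystine and dibasic amino acids in exchange for neutral ones. Loss of that pair causes cystinuria, an inherited form of stone disease. On the blood side the 4F2 heavy chain (Slc3a2) joins light chains such as Slc7a7 and Slc7a8 to release amino acids. Glutamine and other small neutral amino acids are carried by the Slc38 family, which many cells use to feed metabolism and, in the medulla, to balance osmotic stress.

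The deposited values are log2 expression values, and they were used as deposited. Background probes averaged 5.53 to 5.68 per array, so a value near or under these was not above background. The highest background probe of each array lay at 7.64 to 7.98, so values up to there still fell within the range of background probes. Below, a value under background is one under the background mean. Median values of the arrays lay between 7.39 and 7.58. The cortex EG array stood apart in the manufacturer's spike-in control probe sets, which averaged 8.40 there against 9.07 to 9.78 on the other arrays. Zone labels were borne out by marker genes of the convoluted proximal tubule, the distal convoluted tubule and the thick ascending limb. All 10 convoluted proximal tubule markers had lower outer medulla values (limma with Benjamini-Hochberg adjustment over all tested probe sets, adjusted p under 0.05), and so did 3 of 3 tested markers of the distal convoluted tubule, while 6 of 7 markers of the thick ascending limb were higher. Markers of the straight proximal tubule were mostly higher in the cortex as well. Of the 5 tested, with Slc7a13 among them, 3 were lower and 1 higher in the outer medulla by the same fit. Their median zone difference was -2.81. In whole tissue, fewer cells of a type and less RNA per cell cannot be told apart.

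Of the 41 transporters, 25 reached the median of all values (7.54) on at least 1 array and were tested, among 13170 probe sets in all. The other 16 were Slc1a2, Slc1a3, Slc1a4, Slc1a6, Slc1a7, Slc6a14, Slc6a15, Slc7a3, Slc7a4, Slc7a10, Slc7a14, Slc7a15, Slc36a2, Slc36a3, Slc38a5 and Slc38a8, with values from 3.37 to 7.54. Among them the proline and glycine carrier Slc36a2, known for the uptake of these amino acids in human kidney, stayed between 4.58 and 4.95 on all 8 arrays. Slc1a4 lay just outside the threshold with 7.54 in the control cortex as its highest value, against a just higher 7.60 for Slc7a11 in the EG outer medulla and 7.70 for Slc7a2 on the same array. Slc7a11 passed through the EG outer medulla array alone, so it had to differ between arrays. Slc7a2 passed through the EG arrays of both zones alone, at 7.70 and 7.66, so higher EG values were built in for it too. Slc38a4 passed through the outer medulla alone, and Slc6a13, Slc6a19 and Slc7a9 through the cortex alone, which favours a zone difference. With the filter set on the mean of the 8 values instead, 22 transporters passed, all of the 25 but Slc7a2, Slc7a11 and Slc38a4.

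The transporters divided sharply by zone. Of the 25 tested, 12 were lower and 9 higher in the outer medulla than in the cortex within treatments (limma with treatment as a block, adjusted p under 0.05), together 21, while 51.5% of all tested probe sets were called in either direction, 18.8% lower and 32.7% higher. The spread in that fit is how unequal a gene's zone difference was between treatments. Slc38a4, Slc6a13, Slc6a19 and Slc7a9 are among the 21. They had passed the filter through 1 zone alone, so a zone difference was favoured for them by the filter. The luminal and basolateral carriers of the convoluted proximal tubule had the largest differences. Slc6a19, which carries most neutral amino acids across the brush border, had outer medulla values of 5.05 with EG and phlorizin, 5.01 with EG, 4.84 with phlorizin and 4.22 in the control. Its cortex values were 13.50 with EG and phlorizin, 11.08 with EG, 14.04 with phlorizin and 14.32 in the control. All 4 outer medulla values lay under background, so the fitted difference of -8.45 (SE 0.59, limma adjusted p = 0.000113) is no exact size. The cortex mean was 7.61 above the background mean of the outer medulla arrays on the log2 scale. Slc6a18, the gene next to it on chromosome 1, encodes a glycine and neutral amino acid carrier of the later proximal tubule in mouse. It stood at 9.28 with EG and phlorizin, 10.85 with EG, 10.48 with phlorizin and 10.78 in the control outer medulla, against 13.81, 12.84, 13.55 and 13.22 in the cortex in the same order of treatments, a difference of -3.00 (SE 0.39, limma adjusted p = 0.00116). The zones did not overlap for either gene. They did not overlap for 17 of the 25 transporters, against 38.9% of all tested probe sets. Slc38a4, Slc6a13, Slc6a19 and Slc7a9, which had passed the filter through 1 zone alone, are among these 17.

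The cystine carrier showed an uneven zone pattern in its subunits. Slc7a9, the light chain, had 5.83 with EG and phlorizin, 7.01 with EG, 5.80 with phlorizin and 5.55 in the control outer medulla, against 14.22, 14.16, 14.21 and 14.15 in the cortex. The difference was -8.14 (SE 0.26, limma adjusted p = 1.06e-05), and only the control outer medulla value lay under the background mean of its array. Slc3a1, the heavy chain rBAT, had 12.03 with EG and phlorizin, 13.83 with EG, 12.97 with phlorizin and 13.00 in the control outer medulla. In the cortex it had 16.89, 16.13, 17.26 and 17.13. Its zone difference was -3.89 (SE 0.40, limma adjusted p = 0.000414). The rBAT probe set was far above background on all outer medulla arrays. That of Slc7a9 was near the background mean except with EG, where it still lay under the highest background probe of the array. Another known partner of rBAT is Slc7a13, an aspartate, glutamate and cystine carrier of the straight proximal tubule in rat and mouse. Slc7a13 had 11.47 with EG and phlorizin, 12.51 with EG, 13.85 with phlorizin and 13.48 in the control outer medulla, and 15.23, 8.46, 16.37 and 15.40 in the cortex. Over all arrays its zone difference of -1.04 (SE 1.18, limma adjusted p = 0.487) did not pass. Of its cortex values only the EG value lay below every outer medulla value. Without the EG arrays of both zones it was -2.74 (SE 0.32, limma adjusted p = 0.00028).

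Basolateral and other proximal carriers were lower in the outer medulla too. Slc7a7, the y+LAT1 light chain that releases dibasic amino acids and is mutated in lysinuric protein intolerance, had 10.51 with EG and phlorizin, 11.77 with EG, 9.15 with phlorizin and 9.40 in the control outer medulla, against 15.77, 15.97, 16.31 and 16.21 in the cortex. Slc7a8, the LAT2 light chain for neutral amino acids, had 8.64, 9.09, 8.43 and 8.24 against 15.37, 14.51, 15.86 and 15.98. The differences were -5.86 (SE 0.48) and -6.83 (SE 0.37), with limma adjusted p-values of 0.000188 and 4.5e-05. Their heavy chain Slc3a2 differed by only -1.77 (SE 0.14, limma adjusted p = 0.000167), with 13.94, 13.45, 14.38 and 14.66 in the outer medulla and 15.70, 15.37, 16.24 and 16.20 in the cortex. Slc6a13, the GAT2 carrier of GABA and betaine, lay under the background mean in the outer medulla at 4.90, 4.77, 4.94 and 5.05. In the cortex it had 10.08, 7.46, 11.88 and 11.86, with a mean 4.70 above that background mean. Its fitted difference was -5.40 (SE 0.68, limma adjusted p = 0.000953). Slc1a1, the glutamate, aspartate and cysteine carrier EAAC1, had 12.50, 12.20, 12.96 and 13.29 in the outer medulla and 14.49, 13.16, 14.64 and 14.71 in the cortex. Its zones overlapped, since the EG cortex value lay below the control outer medulla value, and the difference within treatments was -1.51 (SE 0.19, limma adjusted p = 0.00104). The lysosomal and brush border proton-coupled carrier Slc36a1 differed by -1.56, the lysosomal glutamine carrier Slc38a7 by -2.92 and Slc7a12 by -1.45, each past the same limma threshold (adjusted p-values of 0.000799, 0.000353 and 0.0476). The Slc7a12 call was lost without the arrays of any treatment other than EG, at limma adjusted p-values of 0.091 to 0.112.

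The Slc38 family held the genes with the largest differences in the other direction. Slc38a1, a sodium-coupled carrier of glutamine, had 13.38 with EG and phlorizin, 12.36 with EG, 13.44 with phlorizin and 13.55 in the control outer medulla, against 9.27, 9.36, 8.88 and 8.74 in the cortex. The difference was 4.12 (SE 0.30, limma adjusted p = 0.000123). Slc38a2, which is induced by hypertonicity and amino acid shortage in many cells, had 16.84, 16.11, 17.01 and 16.54 against 13.63, 14.37, 13.31 and 13.35, a difference of 2.96 (SE 0.31, limma adjusted p = 0.000481). Slc38a4, best known from liver and placenta, had 9.51, 8.69, 8.72 and 8.68 against 5.45, 5.96, 5.96 and 5.97, with the cortex near background, and a fitted difference of 3.07 (SE 0.26, limma adjusted p = 0.000208). Slc38a1, Slc38a2 and Slc38a4 are neighbours on chromosome 7 with no other protein-coding gene between Slc38a1 and Slc38a2 or between Slc38a2 and Slc38a4 in the GRCr8 annotation. They were thus a run of adjacent genes that all differed the same way. The system L light chain Slc7a5 (LAT1), which carries large neutral amino acids, was 2.00 higher in the outer medulla (SE 0.37, limma adjusted p = 0.0046), and its relative Slc7a6 (y+LAT2) 2.59 (SE 0.41, limma adjusted p = 0.0025). The vesicle carrier Slc6a17, known from neurons, was 1.31 higher (SE 0.22, limma adjusted p = 0.00311), with 10.75 with EG and phlorizin, 9.38 with EG, 11.11 with phlorizin and 11.68 in the control outer medulla, against 9.54, 8.77, 9.51 and 9.89 in the cortex. Slc36a4 was 1.06 higher (SE 0.17, limma adjusted p = 0.00289). Slc7a2 and Slc1a5, at 0.69 and 0.55, passed narrowly, with limma adjusted p-values of 0.043 and 0.0466, and both calls were lost when arrays were centred on their medians (0.0614 and 0.0827). Leaving out the arrays of some treatments also ended them, at limma adjusted p-values of 0.103 to 0.145 for Slc7a2 without EG with phlorizin, phlorizin or control, and of 0.0567 to 0.187 for Slc1a5 without EG, phlorizin or control. Slc38a6, Slc38a9 and Slc7a11 did not pass, but without the EG arrays Slc38a6 did, at -1.02 (limma adjusted p = 0.00428), and with quantile normalization Slc38a9 did, at -0.42 (limma adjusted p = 0.0448). Without the treatment block Slc6a17 lost its call (limma adjusted p = 0.0506), as did Slc7a2 and Slc7a12 (0.136 and 0.394).

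**Figure D1:**
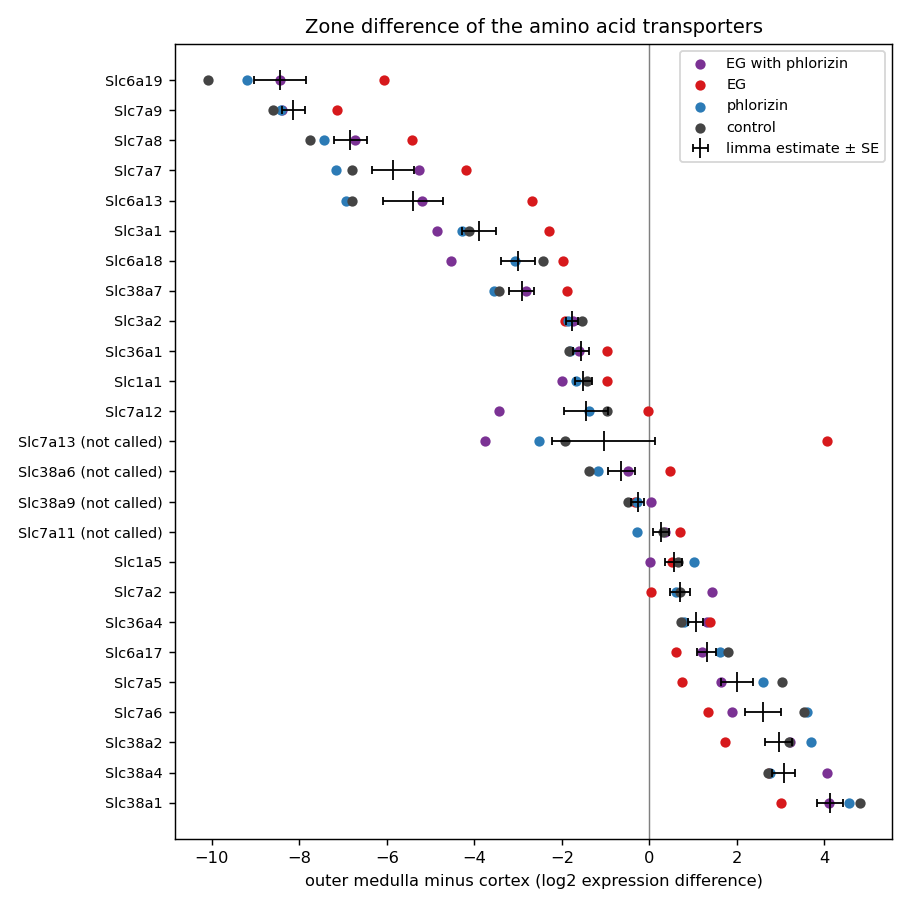
Outer medulla minus cortex difference in log2 expression (x axis) of the 25 tested amino acid transporters (rows), with a point for each treatment and the limma estimate with its SE as a black bar. Proximal carriers such as Slc6a19, Slc7a9 and Slc7a8 lie far to the left and Slc38a1, Slc38a4 and Slc38a2 to the right, while for Slc7a13 the EG point lies at 4.05 and the other treatments between -3.76 and -1.93.

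The amino acid response element core TGATGNAA, which binds heterodimers of ATF4 and C/EBP proteins, was searched on both strands of RefSeq promoter windows of GRCr8, 250 bases before to 50 after a gene's start. Windows were found for 33 of the 41 transporters. Slc38a1 and Slc1a4 held a match, and 3.98% of all 33469 windows did. The Slc38a1 window is shown because this gene had the largest difference toward the outer medulla. It lies at chr7:129681352-129681651 on the minus strand, and the capitals mark the match, 142 bases before the start.
Slc38a1: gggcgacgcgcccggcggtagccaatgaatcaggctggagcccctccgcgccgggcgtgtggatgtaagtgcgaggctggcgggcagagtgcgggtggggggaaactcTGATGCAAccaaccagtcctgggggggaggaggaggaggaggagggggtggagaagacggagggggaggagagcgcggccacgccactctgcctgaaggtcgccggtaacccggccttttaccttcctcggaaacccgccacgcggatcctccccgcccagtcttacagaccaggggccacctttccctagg

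With EG, the transporters of the cortex were on balance lower, and a few by very large amounts. In the cortex 9 of the 25 had an EG value at least 1 below the control value on the log2 scale and 4 a value at least 1 above it, 13 in all. Of all tested probe sets 12.7% were lower and 9.66% higher by that size, together 22.3%. Among the 4 transporters above it, Slc7a2 and Slc7a11 had passed the filter through EG arrays alone. By the same size 6 were lower and 3 higher with EG in the outer medulla, against 9.68% and 8.59% of all. Their median difference was 0.02 (outer medulla) and -0.46 (cortex), and over all tested probe sets the medians were -0.05 and -0.07. For the 22 transporters that passed the filter on the mean the medians were -0.18 and -0.81. In both zones, 4 were at least 1 apart in the same direction, Slc1a1, Slc6a17 and Slc7a12 lower and Slc7a11 higher, against 9.37% of all tested probe sets in either direction (4.47% lower and 4.9% higher). Opposite differences of at least 0.5 each were present in 5 with lower cortex and higher outer medulla values (Slc3a1, Slc6a19, Slc7a8, Slc38a6 and Slc38a7, against 1.93% of all) and in 2 the other way (Slc7a6 and Slc38a1, against 1.15%). These outer medulla values of Slc6a19 lay under background.

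Carriers of the straight proximal tubule included the largest difference of any member. Slc7a13 stood at 12.51 with EG and 13.48 in the control in the outer medulla, and at 8.46 with EG and 15.40 in the control in the cortex, differences of -0.97 and -6.94. The cortex difference corresponds to a 123-fold lower linear value with EG. Other markers of the straight segment differed less on that array. Acy3, an aminoacylase, had 14.07 with EG against 16.15 in the control cortex, Slc5a10, a mannose and fructose carrier, 9.22 against 11.06, and Slc5a1 7.10 against 7.90. The marker Cyp7b1 was higher, at 8.81 against 7.38. Slc22a7 and Slc22a13, the remaining markers of this segment on the array, did not reach the filter. The part of changed cell numbers in the Slc7a13 difference was not tested.

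Slc7a12, a light chain of the same family that is placed with the small neutral amino acid carriers in mouse, had 7.53 with EG and 10.84 in the control outer medulla, and 7.56 with EG and 11.80 in the control cortex. The differences were -3.31 and -4.24, and it was the only transporter at least 1.5 lower in both zones. Both EG values of Slc7a12 lay under the highest background probe of their array, at 7.76 and 7.64, so the sizes are uncertain. Its promoter window is shown because this gene was at least 1 lower with EG in both zones, without and with phlorizin. It lies at chr2:88868054-88868353 of GRCr8 on the minus strand. The capitals mark GTTAAT followed by any base and ATT, the first arm and part of the second of the site bound by HNF1, a factor that controls many proximal tubule genes. This motif was added after the values were seen, was searched on both strands and was held by 0.335% of the 33469 windows. Among the 33 transporters with a window it was found for Slc7a12, 88 bases before the start, and for Slc7a15.
Slc7a12: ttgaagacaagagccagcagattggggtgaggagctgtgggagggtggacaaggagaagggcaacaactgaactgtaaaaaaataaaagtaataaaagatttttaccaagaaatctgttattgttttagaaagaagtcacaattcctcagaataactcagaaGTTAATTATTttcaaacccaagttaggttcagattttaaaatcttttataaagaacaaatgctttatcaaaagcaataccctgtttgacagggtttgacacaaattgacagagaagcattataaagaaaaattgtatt

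Luminal carriers of the proximal tubule differed unequally in the EG cortex. Slc6a19 had 11.08 with EG against 14.32 in the control, a difference of -3.24, and the heavy chain Slc3a1 16.13 against 17.13. The light chain Slc7a9 had 14.16 against 14.15, and Slc6a18 12.84 against 13.22. Slc1a1 differed by -1.55 and Slc36a1 by -1.38. Among the basolateral carriers, Slc6a13 had 7.46 with EG against 11.86 in the control cortex, a difference of -4.39, and Slc7a8 14.51 against 15.98. The EG value of Slc6a13 lay under the highest background probe of its array, at 7.64, so the size of its difference is uncertain. Slc7a7, at 15.97 against 16.21, and Slc3a2, at 15.37 against 16.20, were less than 1 apart. The tested markers of the convoluted proximal tubule averaged 16.57 on the EG cortex array and 17.25 on the control array, with a median difference of -0.64 and 1 of 10 at least 1 lower there and in the outer medulla, the organic anion carrier Slc22a6. The differences of Slc6a19 and Slc6a13 were larger than that of any of these 10, whose lowest was the -2.15 of Slc22a6.

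In the outer medulla several of the same genes were higher with EG. Slc7a7 had 11.77 with EG and 9.40 in the control, a difference of 2.37, and Slc7a9 had 7.01 and 5.55. The control value of Slc7a9 lay under the background mean of its array, and the EG value was 1.41 above that mean. The EG value still lay under the highest background probe of the EG array, at 7.76, so the size of this difference is uncertain. Slc7a8 differed by 0.85, Slc3a1 by 0.83, Slc38a6 by 0.96 and Slc38a7 by 0.74. Slc6a19 and Slc6a13 lay under background on both arrays and Slc1a1 was lower, at 12.20 with EG and 13.29 in the control. Of the 10 markers of the convoluted proximal tubule, 6 were higher with EG there, all of them above the background mean on both arrays. The control value of Hnf4a lay under the highest background probe of its array. Lrp2 (megalin) had 12.06 with EG against 11.10, Cubn (cubilin) 11.76 against 10.75, Gatm 11.37 against 10.57, Slc4a4 8.83 against 7.89, Hnf4a 8.02 against 7.22 and Slc34a1 8.74 against 8.33. The other 4 were lower. The organic anion carrier Slc22a6 had 5.93 against 7.61, close to background with EG, and Slc5a2 (5.45), Slc5a12 (5.22) and Slc22a8 (4.82) lay under background on the EG array. Cltrn, which encodes collectrin, the partner that brings B0AT1 to the membrane, had 11.61 with EG against 9.34 in the control outer medulla and 16.70 against 17.60 in the cortex, and was picked out after its values were seen. The part of differing amounts of convoluted tubule on the outer medulla arrays in these results was not tested.

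**Figure D2:**
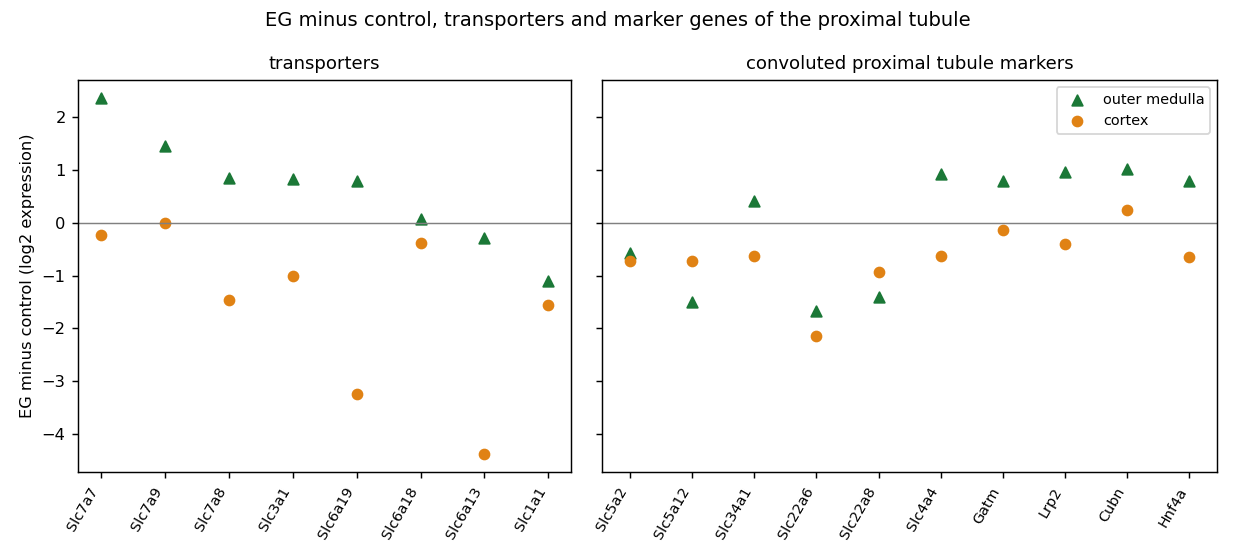
EG minus control difference in log2 expression (y axis) of 8 proximal transporters on the left and the 10 markers of the convoluted proximal tubule on the right, with triangles for the outer medulla and circles for the cortex. In the outer medulla Slc7a7 and Slc7a9 lie at 2.37 and 1.45, the second from a control value under background, and Cubn, the highest marker, at 1.02, and in the cortex Slc6a13 and Slc6a19 lie at -4.39 and -3.24, beyond the lowest marker at -2.15.

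Several carriers with higher outer medulla values differed in the opposite sense with EG. In the outer medulla, where they were at their highest, Slc7a5 had 9.29 with EG against 11.13 in the control, Slc38a1 12.36 against 13.55 and Slc6a17 9.38 against 11.68. The differences were -1.84, -1.18 and -2.30. In the cortex Slc7a6 had 8.92 with EG against 7.53, Slc38a2 14.37 against 13.35 and Slc38a1 9.36 against 8.74. The control cortex value of Slc7a6 lay under the highest background probe of its array, so the size of its difference is uncertain. Slc6a17 was lower there too, with 8.77 with EG against 9.89 in the control cortex. Thick ascending limb markers, of the tubule segment that fills much of the outer medulla, had median EG minus control differences of -1.31 there and -1.54 in the cortex, and 5 of 7 were at least 1 lower in both zones. Their part in these differences was not tested.

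Slc7a11, the cystine and glutamate exchanger xCT that supplies cysteine for glutathione, was the transporter that was at least 1 higher in both zones. It had 6.34 with EG and phlorizin, 7.60 with EG, 5.81 with phlorizin and 5.87 in the control outer medulla, and 5.98, 6.90, 6.10 and 5.56 in the cortex. The EG value was the highest in each zone, and the EG minus control difference in the outer medulla was 1.73. Slc7a11 passed the filter through the EG outer medulla array alone, so a high value there was built in. The control cortex value lay under the background mean of its array, and the EG cortex value was 1.21 above that mean. All 8 values of Slc7a11 lay under the highest background probe of their array, so the sizes of its differences are uncertain. Slc7a2, an arginine carrier found in activated macrophages, had 7.70 against 7.09 in the outer medulla and 7.66 against 6.40 in the cortex. It passed the filter through these EG arrays alone. Of 8 macrophage markers 7 were at least 1 higher with EG in both zones, with medians of 1.78 and 2.89 in the outer medulla and the cortex. Their mean level was 11.64 with EG and 9.66 in the control outer medulla, and 11.18 with EG and 8.41 in the control cortex. Other cell type lists were higher with EG as well, with 4 of 4 tested fibroblast markers at least 1 higher in both zones (medians of 2.95 and 3.22) and 3 of 5 tested cell cycle markers (medians of 2.35 and 1.10). The part of any of these lists in the values of Slc7a11 and Slc7a2 was not tested. The window of Slc7a11, shown as that of the gene that was higher, lies at chr2:136668215-136668514 of GRCr8 on the minus strand and holds neither TGATGNAA nor the HNF1 motif on either strand.
Slc7a11: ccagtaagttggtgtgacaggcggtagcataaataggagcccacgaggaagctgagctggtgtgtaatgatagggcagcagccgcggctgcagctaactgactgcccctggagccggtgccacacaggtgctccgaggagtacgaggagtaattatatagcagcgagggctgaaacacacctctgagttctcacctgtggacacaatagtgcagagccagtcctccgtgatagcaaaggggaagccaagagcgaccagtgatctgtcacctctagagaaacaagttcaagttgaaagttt

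**Figure D3:**
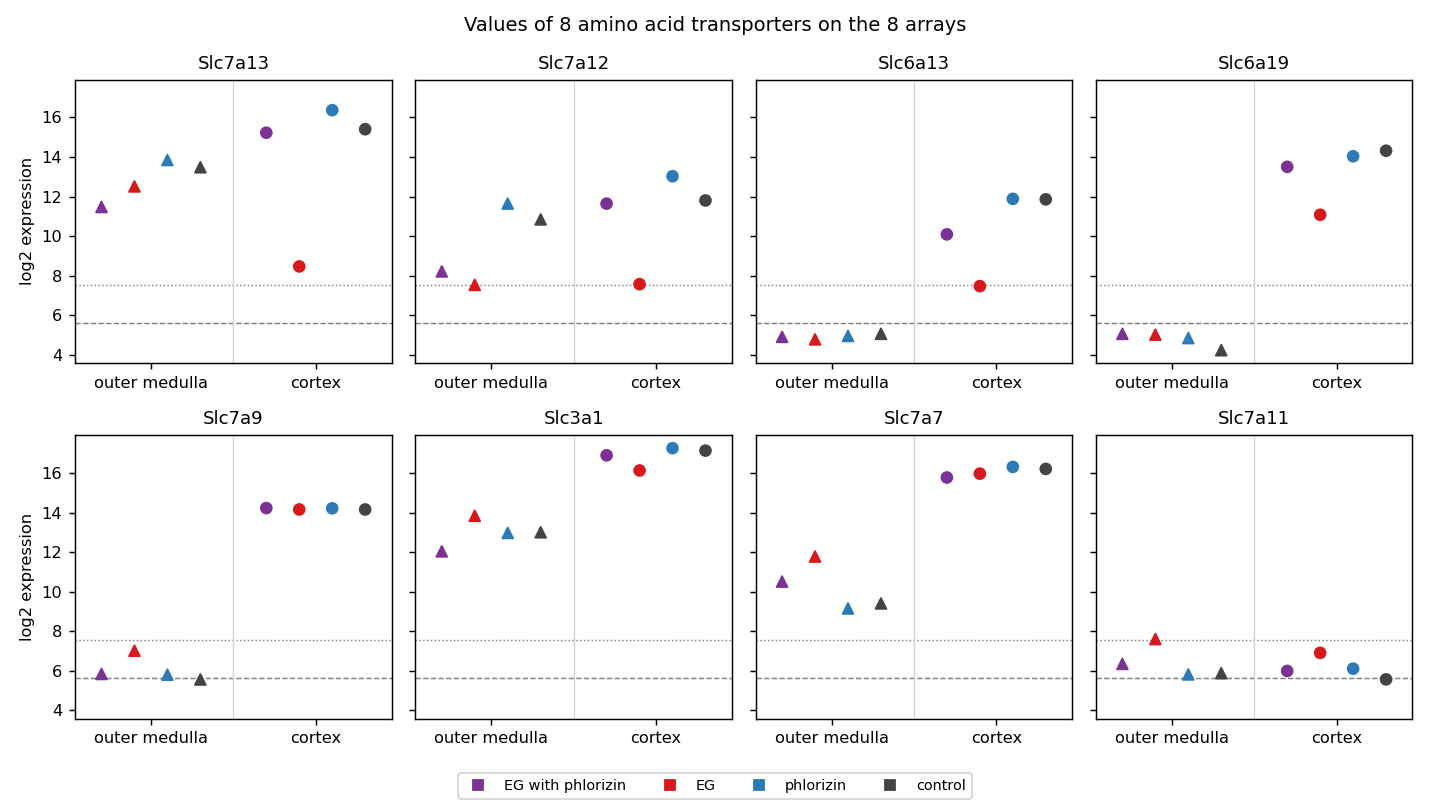
Log2 expression (y axis) of 8 amino acid transporters on each of the 8 arrays, with triangles for the outer medulla, circles for the cortex and colours for the treatments. The dashed line is the mean of the background probes and the dotted line the threshold of 7.54. Slc7a13 and Slc6a13 lie at 8.46 and 7.46 on the EG cortex array, Slc7a12 is low on both EG arrays and on the outer medulla array of EG with phlorizin, and Slc7a9 stays between 14.15 and 14.22 in the cortex.

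Under phlorizin fewer transporters, and fewer probe sets of all kinds, stood apart with EG. In the cortex 4 of the 25 were at least 1 apart, against 3.98% of all tested probe sets. With EG and phlorizin 3 were at least 1 lower and 1 higher than on the phlorizin array in the cortex, against 1.55% and 2.43% of all tested probe sets, and in the outer medulla 4 had lower and 1 had higher values, against 3.01% and 3.66%. Whether these differences differ from those without phlorizin was not tested. In both zones Slc7a12 and Slc7a13 were at least 1 lower, and 1.31% of all tested probe sets were at least 1 apart in both zones in the same direction. Slc7a12 had 8.21 with EG and phlorizin against 11.64 with phlorizin in the outer medulla and 11.64 against 13.03 in the cortex, differences of -3.43 and -1.39. Slc7a13 had 11.47 against 13.85 in the outer medulla and 15.23 against 16.37 in the cortex, differences of -2.38 and -1.14. Slc6a13 had 10.08 against 11.88 in the cortex, and Slc6a19 13.50 against 14.04. Slc7a6, at 8.19 against 7.17 in the cortex, and Slc7a7, at 10.51 against 9.15 in the outer medulla, were at least 1 higher, as they had been without phlorizin on arrays that are not shared. The phlorizin cortex value of Slc7a6 lay under the highest background probe of its array. Slc7a5, at 9.25 against 10.25, and Slc6a18, at 9.28 against 10.48, were at least 1 lower in the outer medulla. Slc7a11 differed by 0.53 (outer medulla) and -0.12 (cortex).

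**Figure D4:**
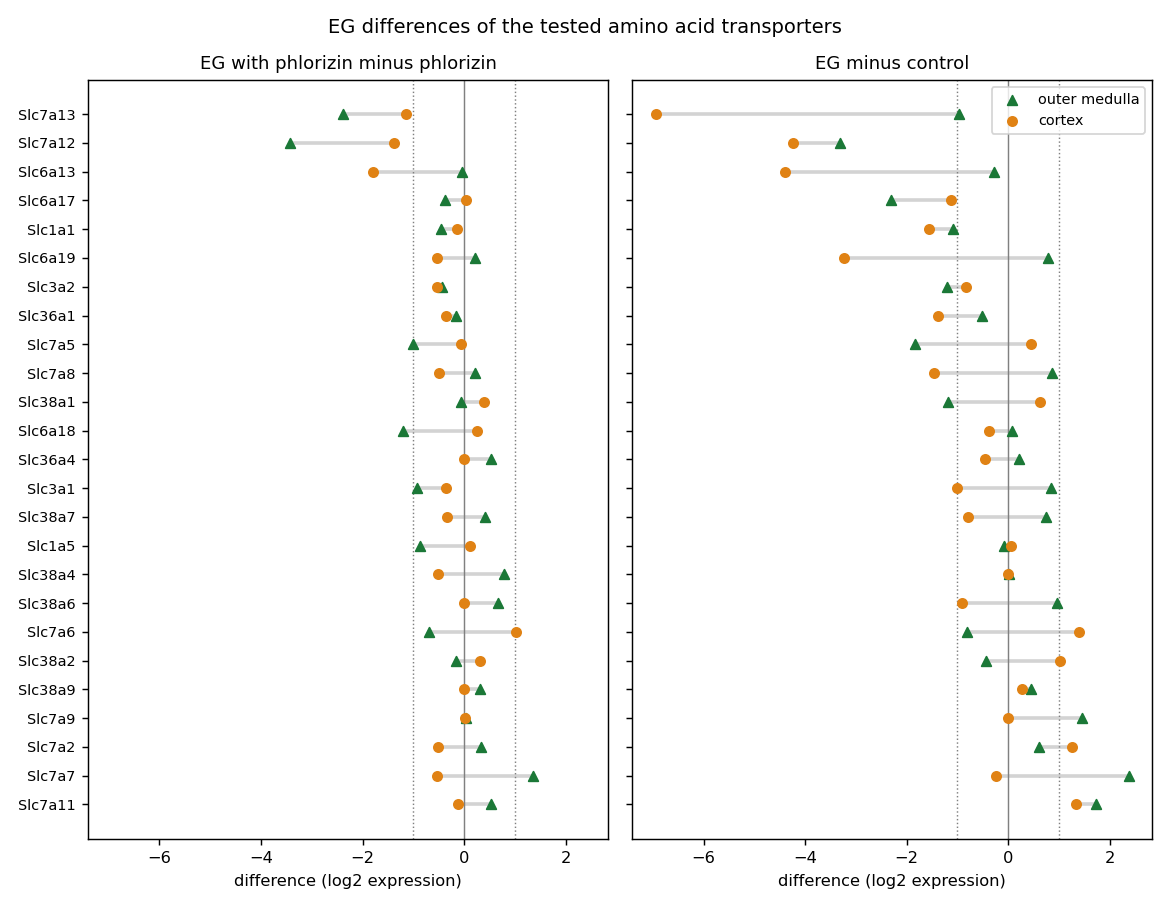
Difference in log2 expression (x axis) of the 25 tested transporters (rows, in the order of the mean EG minus control difference), for EG with phlorizin minus phlorizin on the left and EG minus control on the right, with triangles for the outer medulla and circles for the cortex. Dotted lines mark a difference of 1. The cortex points of Slc7a13, Slc6a13 and Slc6a19 lie at -6.94, -4.39 and -3.24 without phlorizin and at -1.14, -1.80 and -0.53 with it.

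Over both zones and both phlorizin arms, 0 of the 25 transporters were called for EG by limma on the 4 zone-averaged profiles, and 5 of all 13170 probe sets (0.038%). At an unadjusted limma p under 0.05 there were 9 (36%), with 7 lower and 2 higher, against 22.7% of all tested probe sets, 12.9% lower and 9.86% higher. The 2 higher were Slc7a7 and Slc7a11, and Slc7a11 had passed the filter through an EG array alone. The spread in that fit is how unequal a gene's EG difference was with and without phlorizin. Slc7a12 was nearest, with -3.09 (SE 0.35, limma adjusted p = 0.0696) and lower values in 4 of 4 comparisons. Slc7a13 followed with -2.86 (SE 0.50, limma adjusted p = 0.0809) and Slc6a13 with -1.63 (SE 0.36, limma adjusted p = 0.092), and Slc7a13 was lower in 4 of 4 as well. All outer medulla values of Slc6a13 lay under background, so its direction was measured in the 2 cortex comparisons alone, both lower. Slc3a2 had -0.75 (SE 0.23, limma adjusted p = 0.14), again lower in 4 of 4 comparisons. With the outer medulla arrays alone Slc7a12 passed at -3.37 (limma adjusted p = 0.0136) and Slc7a7 at 1.87 (limma adjusted p = 0.0476). With each array centred on its median, and likewise without a filter, Slc7a12, Slc7a13 and Slc6a13 passed, at limma adjusted p-values of 0.00675, 0.0197 and 0.0336 when centred.

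The difference of the EG effect between zones was tested directly, on the 4 differences of outer medulla minus cortex. Of the transporters 0 passed limma's adjusted threshold, as did 0 of all probe sets. At an unadjusted limma p under 0.05 there were 10 of 25 (40%), with 6 higher and 4 lower, against 12.4% of all, 6.48% higher and 5.89% lower. Slc7a7 had the lowest p, with an EG effect 2.25 higher in the outer medulla than in the cortex (SE 0.31, limma adjusted p = 0.196). Slc7a6 went the other way, with -1.96 (SE 0.29, limma adjusted p = 0.196). Each moved in the same sense in both phlorizin arms, Slc7a7 by 2.37 and 1.36 in the outer medulla and -0.24 and -0.53 in the cortex without and with phlorizin, and Slc7a6 by -0.80 and -0.70 and by 1.39 and 1.03. The other 8 were Slc6a13, Slc6a19, Slc7a8, Slc38a6 and Slc38a7, with a higher EG effect in the outer medulla, and Slc7a5, Slc38a1 and Slc38a2, with a lower one. The outer medulla values of Slc6a13 and Slc6a19 lay under background, so for these the test rests on the cortex arrays. The control and phlorizin cortex values of Slc7a6, 7.53 and 7.17, lay under the highest background probe of their arrays. The sizes of its cortex differences are therefore uncertain. The outer medulla minus cortex difference of Slc7a7 was -4.19 with EG and -6.81 in the control, and that of Slc7a6 1.34 and 3.53.

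Among EG animals, several proximal carriers had higher cortex values and several lower outer medulla values where phlorizin was given. In the cortex 5 transporters were at least 1 higher and 1 lower with EG and phlorizin than with EG, against 7.34% and 6.19% of all tested probe sets. In the outer medulla 2 were higher and 6 lower, against 3.35% and 4.34%, and 0 were at least 1 apart in the same direction in both zones, against 2.87%. Slc7a13 had 15.23 with EG and phlorizin against 8.46 with EG in the cortex, and 11.47 against 12.51 in the outer medulla. In the cortex, Slc7a12 had 11.64 against 7.56, Slc6a13 10.08 against 7.46, Slc6a19 13.50 against 11.08 and Slc1a1 14.49 against 13.16. The EG cortex values of Slc7a12 and Slc6a13 lay under the highest background probe of that array, so the sizes of their differences are uncertain. For all 5 genes the cortex values with EG and phlorizin still lay below the phlorizin and control values. The comparison shares its EG arrays with EG minus control.

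The arginine carrier Slc7a2, which passed the filter through the EG arrays alone, was lower in the cortex of EG animals given phlorizin, at 5.97 against 7.66. In the outer medulla, Slc3a1 had 12.03 with EG and phlorizin against 13.83 with EG, Slc6a18 9.28 against 10.85, Slc7a7 10.51 against 11.77, Slc7a9 5.83 against 7.01 and Slc7a11 6.34 against 7.60. Slc6a17 had 10.75 against 9.38 there and Slc38a1 13.38 against 12.36, both closer to the control. The convoluted proximal tubule markers had a mean level of 7.73 with EG and phlorizin against 8.22 with EG in this zone, and of 8.07 with phlorizin and 8.24 in the control. Of the 10, 7 were lower with EG and phlorizin than with EG, among them Hnf4a at 6.24 against 8.02, Gatm at 9.77 against 11.37, Cubn at 10.44 against 11.76 and Lrp2 at 10.85 against 12.06. The other 3 were higher, namely Slc5a12 at 6.34 against 5.22, Slc22a8 at 5.94 against 4.82 and Slc22a6 at 6.18 against 5.93, with the EG values of Slc5a12 and Slc22a8 under background. The part of these markers in the result was not tested.

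Phlorizin without EG was accompanied by small differences. No transporter was at least 1 apart in both zones, against 0.0456% of all tested probe sets, and their medians were -0.06 (outer medulla) and -0.01 (cortex). In the cortex 1 was at least 1 higher and 0 lower, against 0.653% and 0.509%. It was Slc7a12, with 11.64 with phlorizin against 10.84 in the control outer medulla and 13.03 against 11.80 in the cortex. Slc7a13 was 0.37 and 0.96 higher in these zones. Slc7a5, at 10.25 with phlorizin against 11.13 in the control outer medulla, had the lowest difference. Over both zones and both EG arms limma called 0 transporters and 0 probe sets for phlorizin after adjustment. At an unadjusted limma p under 0.05 there were 3 transporters, Slc7a12 (1.70, SE 0.35), Slc7a13 (1.76, SE 0.50) and Slc7a5 (-0.57, SE 0.21), against 3.55% of all probe sets, 1.53% higher and 2.02% lower. These estimates are means over arrays with and without EG. EG with phlorizin minus EG was 4.08 for Slc7a12 and 6.76 for Slc7a13 in the cortex. In the outer medulla it was 0.68 and -1.04.

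Genes that work with these carriers were followed in lists of 20 genes each. Of 15 tested genes of amino acid and peptide transport outside the set, 10 were lower and 3 higher in the outer medulla by the limma zone fit, against 18.8% and 32.7% of all tested probe sets. With EG, 1 of the 15 was at least 1 lower in both zones and 0 higher, against 4.47% and 4.9% of all tested probe sets. It was Slc43a2, the basolateral LAT4 carrier of branched-chain amino acids, with 10.35 with EG against 11.77 in the control outer medulla and 11.15 against 13.33 in the cortex. Of 14 tested genes of the amino acid response, a programme driven by ATF4 that raises carriers and enzymes when amino acids are short, 3 were at least 1 higher and 0 lower in both zones. These were Atf3 (1.78 and 1.86 in the outer medulla and the cortex), Aldh18a1 of proline synthesis (1.14 and 1.33) and the translation inhibitor Eif4ebp1 (1.24 and 1.79). In the cortex alone, Phgdh, Shmt2, Psat1 and Psph were at least 1 lower (-2.17, -1.80, -1.65 and -1.20) and Asns higher (1.70). In the outer medulla alone, Ddit3 and Nupr1 were at least 1 lower (-1.50 and -1.35). Atf3 was also 1.60 and 1.19 higher with phlorizin alone in the outer medulla and the cortex. With EG under phlorizin it differed by -0.61 and 0.72. The list's median was 0.43 (outer medulla) and -0.49 (cortex), and 0 of its members were called by limma for EG.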

How the data were processed

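Clariom S rat arrays of 2 zones and 4 treatments were analysed, with 1 array each. Values deposited by the authors are on a log2 scale after RMA, per the submitters' processing notes. Their range, 2.28 to 19.7, is the ground for taking base 2, and RMA's version and genome build are not given in the sources used here. Of 24834 probe sets, 1646 that are no transcripts were not tested. Of the other 23188, 15049 had 1 gene symbol in the platform annotation and 8139 none. Probe sets whose highest value reached 7.54, the median of all values, were tested with limma 3.58.1 in R 4.3.3 (2-sided, Benjamini-Hochberg adjustment over 13170, adjusted p under 0.05). EG and phlorizin were fitted together on 4 zone-averaged profiles, and the EG effect between zones on 4 zone differences, each with 1 residual degree of freedom before moderation. Zones were compared over 8 arrays with treatment as a block. p-values measure the spread between these arrays, which may be technical. In the zone fit it is how unequal the zone difference was between treatments. In the other fits it is how unequal the EG difference, or its difference between zones, was with and without phlorizin. With no replicate arrays, no p-value measures the spread between rats given the same treatment. Single arrays were compared by size, at least 1 on the log2 scale. The number of arrays limits precision.

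Members, gene lists and tests were chosen with earlier results of these data known. Named with all 8 values were listed proximal carriers as far as measured, members at least 1 apart in both zones with EG, and the 10 largest called zone differences. Other members were named after their values were seen. Scripts were tested on simulated data. Python 3.11.15, pandas 2.3.3, numpy 2.4.6 and matplotlib 3.10.9 were used. Alternatives covered normalization, filter, variance prior, unit of the fit and size. The choice of another probe set could change nothing, since each member had 1 probe set. Promoter sequences are from RefSeq (GRCr8).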

Additional observations from a re-analysis of the deposited data

How the results depend on the processing

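The count of 21 transporters called between zones lay between 18 and 22 when the arrays of 1 treatment were left out in turn, and between 18 and 22 under the other alternatives. Slc7a2, Slc1a5 and Slc7a12 lost their calls under several of them. For EG over both zones, the count of 0 became 3 with arrays centred on their medians and 3 without a filter, 1 with a variance trend, 2 with 8 arrays and treatment as a random block, 2 with outer medulla arrays alone, and stayed 0 with cortex arrays alone, with quantile normalization and with the filter on the mean. Over all tested probe sets the 5 limma calls for EG became 803, 633, 59, 1692 and 353 under the first 5 of these, and 7, 0 and 5 under the last 3. The counts of transporters for phlorizin and for the EG effect between zones were 0 under all alternatives run. Over all probe sets the EG effect between zones reached 49 with a variance trend. At a size of 0.5 the counts in both zones were 8 for EG minus control, 3 for EG with phlorizin minus EG and 1 for phlorizin minus control, and at a size of 1.5 they were 1 for EG minus control and 0 for EG with phlorizin minus phlorizin. Outer medulla arrays alone gave 9, 5 and 8 for EG minus control, EG with phlorizin minus phlorizin and EG with phlorizin minus EG, and cortex arrays alone 13, 4 and 6, and 1 for phlorizin minus control. These single-zone counts were added after the data were seen. No called member reversed its sign. No paired analysis was possible because each group has 1 array and the labels give no replicate numbers, beyond the treatment block of the zone fit. Values near background limit what can be said of Slc7a11, Slc38a4, and Slc6a13, Slc6a19 and Slc7a9 in the outer medulla. Slc7a12 with EG and Slc6a13 in the EG cortex also had values within the range of background probes. So did Slc7a6 in the control and phlorizin cortex. The cause of these changes was not tested.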

Other observations

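Among the 16 transporters below the threshold, Slc7a15 had 6.38 with EG and phlorizin, 5.87 with EG, 6.63 with phlorizin and 6.31 in the control outer medulla, against 4.43, 4.92, 4.46 and 4.47 in the cortex, where it lay under background on all arrays. Together with the glutamate carrier gene Slc1a3 it was called higher in the outer medulla by limma in the fit without a filter. All 8 values of Slc1a3 lay under the background mean of their array.

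The beta globin gene Hbb, picked out after its values were seen, differed between arrays. It had 15.61 with EG and phlorizin, 11.72 with EG, 15.18 with phlorizin and 14.69 in the control outer medulla, and 11.12, 7.86, 10.75 and 12.04 in the cortex, so both EG values were the lowest of their zone.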
